A study of Mus musculus with 2 samples.

Results

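Fcer1a, Ms4a2, Fcer1g, Fcgr2b and Fcgr3 encode subunits of receptors for the constant part of antibodies, and these 5 of the 31053 genes in the count table are described here. They were chosen with their values in these samples already known. The values used were UMIs of the gene per 1000000 UMIs of the cells used from a library (CPM) and shares of cells by library. Both were taken with and without cells rich in the basophil proteases Prss34 and Mcpt8. The level of Fcer1a against the other 4 genes over the same sets of cells was also used. Every difference between libraries in the 5 genes is therefore given as a description.

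Single-cell RNA-seq with 3′ tags was carried out on bone marrow cells of Runx1 F/F Mx1-Cre mice, sorted as LSK CD150+, that is, lineage-negative, Sca-1+, Kit+ and positive for the SLAM receptor CD150. There was 1 library labelled RUNX1 KO and 1 library labelled RUNX1 WT, and the series set out to compare the composition of these populations. Mx1-Cre drives Cre recombinase from an interferon-responsive promoter, which acts in blood cells and in other tissues. Whether an inducer was given to either group, whether the WT mice carried Cre or the floxed alleles, the age of the mice and the number of animals per library are not stated in these sources.

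With 1 library per genotype no difference has a replicate check, none was tested, and every interval is an exact 95% interval that covers counting error alone. The KO-labelled library had 10769 kept cells with 119272042 UMIs and a median of 9310 UMIs per cell, and the WT library had 9472 kept cells with 112655858 UMIs and a median of 9884. Runx1, the targeted gene, stood at 196 CPM in the KO-labelled library and 104 CPM in the WT library, a ratio of 1.89 (1.85 to 1.93). Tags from the 3′ end do not read every exon and the sources used here do not name the deleted exons, so this value does not check the label, and "KO-labelled" below means the library with that label. By Y-linked transcripts and Xist, 9.04% of KO-labelled cells were male and 82.9% female, while 70.6% of WT cells were male and 0.0950% female. Genotype and sex cannot be told apart over whole libraries, and values within male cells are given beside the main results. Transcripts of the sort markers were found in both libraries, with Kit UMIs in 70.4% of KO-labelled and 73.5% of WT cells, Ly6a (Sca-1) in 25.2% of KO-labelled and 20.9% of WT cells, and Slamf1 (CD150) in 23.7% of KO-labelled and 17.4% of WT cells. The libraries shared 33 barcodes among kept cells, which held 0 Fcer1a UMIs in the KO-labelled library and 6 in the WT library.

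The high-affinity IgE receptor, FcεRI, is built from an alpha chain that binds IgE (Fcer1a), a beta chain that amplifies the signal (Ms4a2) and a pair of gamma chains (Fcer1g). The beta and gamma chains carry ITAMs, tyrosine motifs that recruit the kinase Syk once an antigen cross-links bound IgE. In mice the complete receptor is known from mast cells and basophils, where it sets off degranulation. The gamma chain is also the signalling subunit of activating IgG receptors such as FcγRIII (Fcgr3), whereas FcγRIIb (Fcgr2b) carries an inhibitory motif, the ITIM, and is the inhibitory IgG receptor of B cells and myeloid cells.

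In the GENCODE M21 annotation on GRCm38, the mm10 build of the files, all 5 genes are protein-coding and lie on the minus strand. Fcgr2b (chr1:170958617-170976547), Fcgr3 (chr1:171051174-171064935), Fcer1g (chr1:171229572-171234365) and Fcer1a (chr1:173221284-173227214) share chromosome 1, and Ms4a2 lies at chr19:11615523-11623719. Fcgr2b overlaps the antisense gene Gm38204 (chr1:170973373-170977746, plus strand) at its 5′ end, and whether counting used strand is not stated. Fcgr2b and Fcgr3 belong to a family of near copies. The last 500 bases of the annotated transcripts were compared with all other transcripts in stretches of 50 bases, and an exact copy in another gene was found for 0 of 40 Fcgr3 stretches and 1 of 69 Fcgr2b stretches. For Fcer1a, Ms4a2 and Fcer1g it was found for 0 of 20, 0 of 48 and 0 of 27 stretches.

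The promoters are shown because the targeted gene encodes a DNA-binding factor and because the alpha and beta chain genes differed in opposite directions between the libraries. All 5 genes matched the RefSeq promoter table (GRCm38.p6) by symbol. Each line runs from 100 bases before the start to 30 bases after it, 5′ to 3′ on the minus strand. Capitals mark TGTGGT, the core word bound by RUNX factors, and AGATAA, a word bound by GATA factors, in either orientation (ACCACA and TTATCT on the other strand).
Fcer1a, chr1:173227200-173227329: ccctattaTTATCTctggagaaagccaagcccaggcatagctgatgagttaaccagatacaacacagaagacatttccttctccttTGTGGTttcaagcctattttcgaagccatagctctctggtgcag
Ms4a2, chr19:11623690-11623819: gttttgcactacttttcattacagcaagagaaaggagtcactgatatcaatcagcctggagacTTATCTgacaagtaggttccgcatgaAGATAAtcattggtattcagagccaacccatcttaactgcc
Fcer1g, chr1:171234320-171234449: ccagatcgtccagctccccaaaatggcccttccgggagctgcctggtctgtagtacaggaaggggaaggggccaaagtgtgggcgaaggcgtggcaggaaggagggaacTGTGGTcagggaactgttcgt
Fcgr2b, chr1:170976042-170976171: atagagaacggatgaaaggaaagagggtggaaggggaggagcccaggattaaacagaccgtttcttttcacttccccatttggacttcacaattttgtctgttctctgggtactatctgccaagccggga
Fcgr3, chr1:171059374-171059503: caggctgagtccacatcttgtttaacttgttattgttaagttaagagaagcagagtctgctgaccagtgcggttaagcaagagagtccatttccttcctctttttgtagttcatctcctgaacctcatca

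In the wider window of 300 bases (250 before the start to 50 after), TGTGGT was found in Fcer1a, with its first base at -14, and in Fcer1g, at 10. It was not found in the windows of the other 3 genes, nor at the second start that the table lists for Fcgr3. For Fcgr2b and Fcgr3 the windows lie inside the GENCODE genes, short of their 5′ ends at 170976547 and 171064935. Those ends were not searched. AGATAA was found once in Fcer1a, at -92, and 3 times in Ms4a2, at -224, -37 and -11. Over all 32851 promoter windows of this length, 16.8% held TGTGGT and 11.2% held AGATAA, so matches of such short words are common. These matches describe letters and were not tied to binding by any measurement in these data.

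The alpha chain gene Fcer1a was nearly absent from the KO-labelled library. It had 21 UMIs (0.176 CPM, 0.109 to 0.269) in the KO-labelled library and 2658 UMIs (23.6 CPM, 22.7 to 24.5) in the WT library, which is 134-fold lower (87.5 to 217). Among the 5904 genes that reached 20 CPM in at least 1 library, this was the third lowest ratio, after Prss34 and Mcpt8. Fcer1a was 1 of 36 genes at least 2-fold lower, or 0.610% of the 5904 genes, a contrast that also chose the gene.

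The partner chains were not low in the KO-labelled library. Ms4a2, the beta chain, had 15.2 CPM (14.5 to 16.0) in the KO-labelled library and 9.11 CPM (8.56 to 9.68) in the WT library, a ratio of 1.67 (1.55 to 1.81). Fcer1g, the gamma chain, had 91.0 CPM in the KO-labelled library and 87.2 CPM in the WT library, a ratio of 1.04 (1.01 to 1.07) that turned to 0.967 when cells were asked to have 1000 genes and at most 5% mitochondrial UMIs. Its direction over all cells therefore depended on the cell filter.

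Both IgG receptor genes were higher in the KO-labelled library. Fcgr2b, the inhibitory receptor, had 27.6 CPM (26.7 to 28.6) in the KO-labelled library and 6.68 CPM (6.21 to 7.17) in the WT library, a ratio of 4.14 (3.82 to 4.48). This was the 10th highest ratio among the 5904 genes, of which 52 (0.881%) were at least 2-fold higher. Fcgr3, the activating receptor, had 21.2 CPM in the KO-labelled library and 12.4 CPM in the WT library, a ratio of 1.71 (1.60 to 1.83). At 5 CPM or more and 1.5-fold, 283 of 9572 genes (2.96%) were higher and 369 (3.85%) lower, and Ms4a2, Fcgr2b and Fcgr3 were among the first and Fcer1a among the second. Myeloid and B cells also carry the IgG receptors. A list of 6 neutrophil genes summed to 624 CPM in the KO-labelled and 115 CPM in the WT library, a list of 6 monocyte genes to 254 CPM in the KO-labelled and 206 CPM in the WT library, and a list of 7 B cell genes to 106 CPM in the KO-labelled and 297 CPM in the WT library. Each of these genes had UMIs in both libraries, and their part in the IgG receptor results was not tested.

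Cells with at least 10 UMIs of Prss34 and Mcpt8 together, called protease-rich here, numbered 1 in the KO-labelled library and 74 in the WT library. Summed over the 6 genes of a basophil list, the level was 16.4 CPM in the KO-labelled and 229 CPM in the WT library. Of the WT sum, 108.9 CPM came from Prss34 and 108.5 CPM from Mcpt8, the genes that chose the protease-rich cells. Among its other genes, Hdc was higher in the KO-labelled library (13.05 CPM against 7.03 CPM in the WT library). Cd200r3 (0.956 against 1.98 CPM) and Il4 (0.629 against 0.710 CPM) were lower. The mast cell protease genes Mcpt4, Tpsb2 and Tpsab1 had 0 UMIs in both libraries. The 74 WT cells held 1004 of the 2658 Fcer1a UMIs and 452 of the 1026 Ms4a2 UMIs of that library. In them Fcer1a reached 1571 CPM, Ms4a2 707 CPM and Fcer1g 1249 CPM, and 69 of the 74 cells had UMIs of all 3 chains of the IgE receptor. The single KO-labelled cell had 33210 UMIs, among them 7 of Prss34, 6 of Mcpt8, 2 of Ms4a2, 5 of Fcer1g and 0 of Fcer1a. It lay in an erythroid-like cluster. Just outside the threshold, at 5 to 9 protease UMIs, there were 0 KO-labelled cells and 14 WT cells, of which 5 had Fcer1a UMIs. Just inside it, at 10 to 19 protease UMIs, there were the 1 KO-labelled cell, without Fcer1a, and 4 WT cells, of which 2 had it.

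With the protease-rich cells left out, Fcer1a stayed low and the partner chain differed more. Fcer1a had 0.176 CPM in the KO-labelled library and 14.8 CPM (14.1 to 15.5) in the WT library, 83.8-fold lower (54.7 to 136). This was the lowest ratio of the 9572 genes at 5 CPM or more. Prss34, which helps define the cells left out, was then under that floor and was not ranked. It had 0 UMIs in the KO-labelled library and 2.60 CPM in the WT library. In these sums 54 of 5904 genes at 20 CPM (0.915%) were 2-fold higher or more and 33 (0.559%) were 2-fold lower or more, and Fcgr2b was among the higher ones. Ms4a2 had 15.2 CPM in the KO-labelled library and 5.12 CPM (4.71 to 5.56) in the WT library, a ratio of 2.97 (2.70 to 3.27). The ratio was 1.13 (1.10 to 1.16) for Fcer1g, 4.34 (4.001 to 4.71) for Fcgr2b and 1.97 (1.84 to 2.11) for Fcgr3. Within male cells without the protease-rich ones, 973 in the KO-labelled library and 6647 in the WT library, Fcer1a had 1 UMI in the KO-labelled library, and its ratio was 0.00646 with a counting interval of 0.000163 to 0.0360. There the ratios were 3.72 for Ms4a2, 1.15 for Fcer1g, 4.54 for Fcgr2b and 2.18 for Fcgr3. In these whole-library sums, fewer cells with a transcript and less of it per cell cannot be told apart.

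**Figure D1:**
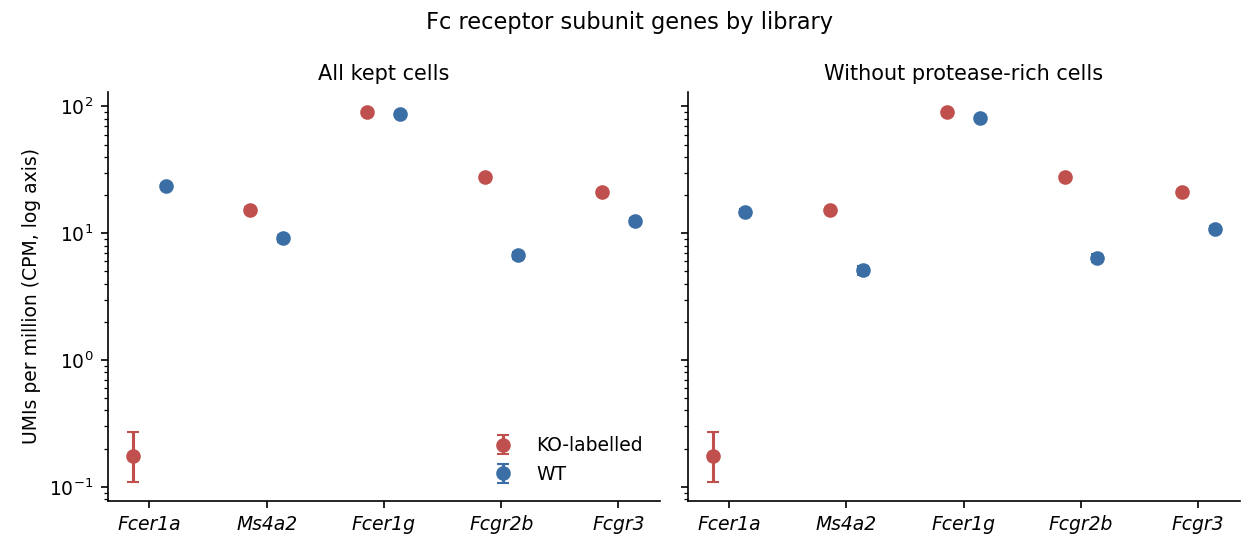
Level of each gene in CPM (log axis) in the KO-labelled and WT libraries, over all kept cells (left) and without protease-rich cells (right). Points are summed levels of 1 library each and bars are exact 95% Poisson intervals, mostly smaller than the points. Fcer1a stands at 0.176 CPM in the KO-labelled library in both panels, against 23.6 and 14.8 CPM in the WT library, while Fcgr2b stands at 27.6 CPM in the KO-labelled library in both, against 6.68 and 6.37 CPM in the WT library.

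The share of cells with a transcript was lower for Fcer1a and higher for the other 4 genes in the KO-labelled library. At full depth Fcer1a UMIs were found in 20 KO-labelled cells (0.186%) and 954 WT cells (10.1%). With every cell thinned to 3000 UMIs, which left out 91 KO-labelled and 155 WT cells, the shares were 0.0468% in the KO-labelled and 4.45% in the WT library. Thinned shares of Ms4a2 were 3.87% in the KO-labelled library and 1.503% in the WT library, and those of Fcer1g 15.9% in the KO-labelled and 13.7% in the WT library. Those of Fcgr2b were 7.40% in the KO-labelled and 1.90% in the WT library, and those of Fcgr3 4.45% in the KO-labelled and 2.24% in the WT library. At full depth, Ms4a2 was found in 845 KO-labelled and 346 WT cells, and Fcer1g in 3412 KO-labelled and 2749 WT cells. Fcgr2b was found in 2378 KO-labelled and 585 WT cells, and Fcgr3 in 1062 KO-labelled and 506 WT cells.

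Outside the protease-rich cells, most cells with a transcript held few copies. Of the 20 KO-labelled cells with Fcer1a, 19 had 1 UMI and 1 had 2 UMIs, whereas 177 of 884 WT cells had 3 or more and the highest had 20. Ms4a2 reached 16 UMIs in a KO-labelled cell and 26 UMIs in a WT cell, so high beta chain cells were present in both libraries. Of the 20 KO-labelled cells, 18 were female, 1 was male and 1 neither, 7 had Ms4a2 UMIs, 16 had Cpa3 UMIs, and 0 had a barcode that the WT library also used. They lay in 6 clusters, 7 of them in a stem-like cluster and 6 in the cluster led by S-phase histone genes.

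Summed over each library, the alpha chain was also low relative to its partners, a ratio of 2 genes of 1 library that does not depend on library scaling. Over all kept cells there were 1.16 Fcer1a UMIs per 100 Ms4a2 UMIs (0.713 to 1.77) in the KO-labelled library and 259 (241 to 278.7) in the WT library. Per 100 Fcer1g UMIs there were 0.194 in the KO-labelled and 27.1 in the WT library. Per 100 UMIs of the IgG receptor genes the values were 0.638 in the KO-labelled and 354 in the WT library for Fcgr2b, and 0.830 in the KO-labelled and 190 in the WT library for Fcgr3.

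Cells with UMIs of all 3 IgE receptor chains numbered 4 in the KO-labelled library and 120 in the WT library, or 4 KO-labelled and 51 WT cells without the protease-rich ones. Cells with the beta and gamma chains and no alpha chain UMI numbered 330 in the KO-labelled library and 57 in the WT library. Among cells outside the protease-rich set with both Ms4a2 and Fcer1g UMIs, Fcer1a was found in 4 of 333 KO-labelled cells (1.201%, 0.328 to 3.05) and 51 of 107 WT cells (47.7%, 37.9 to 57.5), at median depths of 11076 UMIs in the KO-labelled and 12336 UMIs in the WT cells. Thinned to 3000 UMIs the counts were 0 of 68 KO-labelled and 6 of 16 WT cells. Among cells with Ms4a2 UMIs, whatever their Fcer1g, Fcer1a was found in 7 of 844 KO-labelled cells (0.829%) and 108 of 276 WT cells (39.1%), and after thinning in 0 of 413 KO-labelled and 27 of 91 WT cells. Within male cells with Ms4a2 UMIs the counts were 0 of 84 KO-labelled and 87 of 211 WT cells.

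Cpa3, the mast cell carboxypeptidase, gives a choice of cells that does not use Ms4a2. Cpa3 was itself higher in the KO-labelled library without protease-rich cells (163.8 CPM against 31.9 CPM in the WT library, ratio 5.13). The cells it chose in the 2 libraries need therefore not be alike. Outside the protease-rich set 1328 KO-labelled and 136 WT cells had at least 5 Cpa3 UMIs. Of these, Fcer1a was found in 8 KO-labelled cells (0.602%, 0.260 to 1.18) and 48 WT cells (35.3%, 27.3 to 44.0). Ms4a2 was found in 28.7% of the KO-labelled cells (26.3 to 31.2) and 36.0% of the WT cells (27.98 to 44.7), shares whose intervals overlap. Fcer1g was found in 52.2% of them in the KO-labelled and 61.0% in the WT library. In cells with neither Ms4a2 nor Fcer1g UMIs, Fcer1a was found in 10 of 6846 KO-labelled cells (0.146%) and 550 of 6554 WT cells (8.39%).

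Fcgr2b, the inhibitory IgG receptor, was found in 26.2% of KO-labelled and 9.06% of WT cells with Ms4a2, and in 18.1% of KO-labelled and 3.28% of WT cells with neither Ms4a2 nor Fcer1g. In the cells with at least 5 Cpa3 UMIs it was found in 23.2% in the KO-labelled library (20.9 to 25.6) and 22.8% in the WT library (16.0 to 30.8). Fcgr3 was found in 12.7% of both the KO-labelled and the WT cells with Ms4a2. Whether the difference in Fcgr2b itself differs between these sets was not tested.

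**Figure D2:**
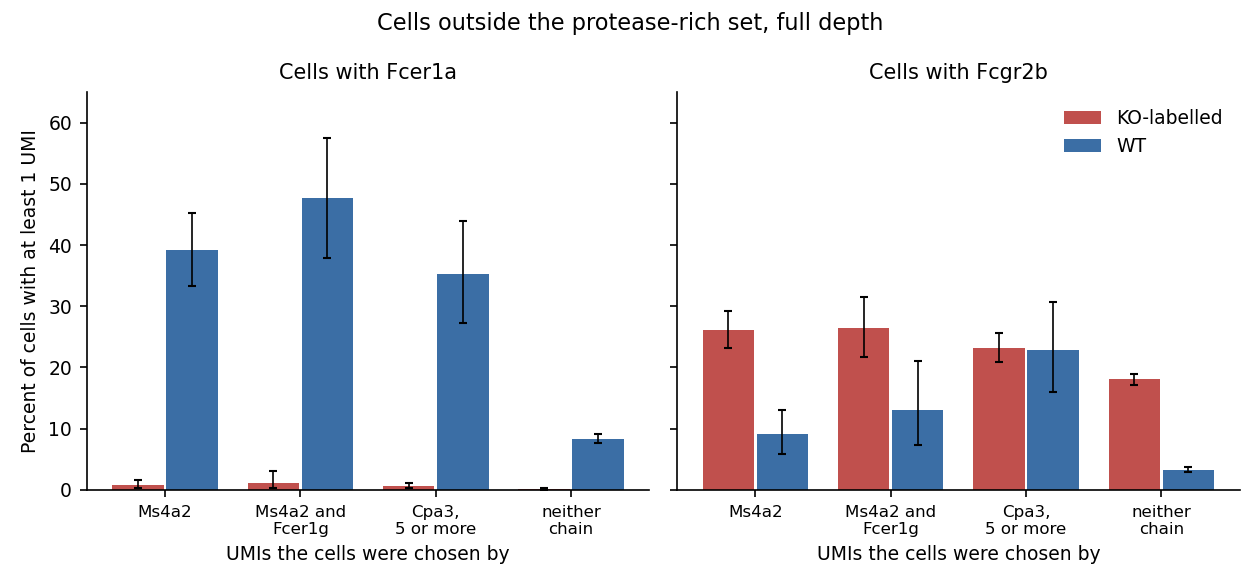
Percent of cells with at least 1 UMI of Fcer1a (left) and Fcgr2b (right) in 4 sets of cells outside the protease-rich set, chosen by UMIs of Ms4a2, of Ms4a2 and Fcer1g, of Cpa3 (5 or more) or by having neither chain. Bars are shares in the KO-labelled library (left of each pair) and the WT library, with exact Clopper-Pearson 95% intervals. Fcer1a is at 0.146% to 1.201% in the KO-labelled library in all 4 sets, against 8.39% to 47.7% in the WT library, and the Fcgr2b shares of the Cpa3 set are 23.2% in the KO-labelled and 22.8% in the WT library.

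Free RNA in droplets can give UMIs in cells that do not express a gene. In the WT library Prss34 had 11.9 UMIs per Fcer1a UMI in the protease-rich cells and 0.176 outside them, while Mcpt8 had 11.5 in the protease-rich cells and 0.383 outside them. The part of free RNA in the Fcer1a UMIs outside those cells was not tested. As a level in cells that should lack the gene, cluster 13, led by Ifi205, Batf3 and Cd209a with class II antigen genes among its top genes, had 0 Fcer1a UMIs in the KO-labelled library and 4 (1.56 CPM) in the WT library. The median depth of its cells was 8284 UMIs in the KO-labelled and 8606 UMIs in the WT library. After thinning, Fcer1a was found in 0 of 273 KO-labelled and 0 of 264 WT cells of that cluster, which, at 3 counts of the total, allows a share of up to 1.10% of KO-labelled and 1.14% of WT cells.

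The cells of both libraries were clustered together without the 5 genes and without any gene that differed 1.5-fold or more, which gave 17 clusters, 14 of them with at least 50 cells in each library. Fcer1a was lower in the KO-labelled library in 14 of 14 clusters, with the interval below 1 in 13. The levels per cluster ran from 0 to 0.646 CPM in the KO-labelled library and from 0.942 to 34.0 CPM in the WT library. The highest KO-labelled level (0.260 to 1.33) and the lowest WT level (0.379 to 1.94) rested on 7 UMIs each, and their intervals overlapped. For genes other than the 5, which were chosen with their values known, counts over clusters were not made. In the cluster led by Pimreg and Kif23, genes of dividing cells, the level was 0.350 CPM in the KO-labelled and 34.0 CPM in the WT library, the highest WT level of the 14. In the cluster led by S-phase histone genes it was 0.485 CPM in the KO-labelled and 31.1 CPM in the WT library. In the stem-like cluster led by Procr and Ly6a the level was 0.0986 CPM (1 UMI) in the KO-labelled and 0.942 CPM (7 UMIs) in the WT library, under the WT level of cluster 13. In the megakaryocyte-like cluster it was 0.175 CPM in the KO-labelled and 10.9 CPM in the WT library.

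Ms4a2 was higher in the KO-labelled library in 10 of the 14 clusters, with the interval above 1 in 7 and below 1 in 1. In the stem-like cluster led by Ung and Myl10 it had 31.8 CPM in the KO-labelled and 4.91 CPM in the WT library, a ratio of 6.48 (4.93 to 8.63), and in the one led by Procr and Ly6a it had 5.72 CPM in the KO-labelled and 0.807 CPM in the WT library, a ratio of 7.08 (3.07 to 20.1). In the megakaryocyte-like cluster the levels were 2.98 CPM in the KO-labelled and 2.09 CPM in the WT library, with an interval that held 1. In the cluster led by Gadd45g and Clec1b, which held 1748 KO-labelled and 146 WT cells, Ms4a2 had 33.2 CPM in the KO-labelled and 37.5 CPM in the WT library, with an interval of the ratio from 0.620 to 1.30. That cluster alone held 23.3% of the Ms4a2 UMIs of the KO-labelled library, while cluster 14, led by Prss34 and Mcpt8, held 47.9% of those of the WT library.

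Fcgr2b was higher in the KO-labelled library in 14 of the 14 clusters, with the interval above 1 in 13. In the megakaryocyte-like cluster it had 29.4 CPM in the KO-labelled and 2.79 CPM in the WT library, a ratio of 10.5 (7.77 to 14.6), and in the cluster led by Pf4, Clec1b and Serpine2 it had 39.97 CPM in the KO-labelled and 3.21 CPM in the WT library, a ratio of 12.4 (8.72 to 18.3). In the stem-like cluster led by Procr and Ly6a the ratio was 10.99 (5.62 to 24.6). In the 2 granulocyte-monocyte progenitor-like clusters, where the WT levels were 33.7 and 33.4 CPM, the ratios were 1.73 and 1.99. The ratio was nearest to 1 in the erythroid-like cluster led by Sphk1 and Mt2, at 1.17 (0.504 to 2.78).

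Among the 14 clusters, Fcgr3 had its highest levels in the 2 granulocyte-monocyte progenitor-like clusters of each library. Its levels there were 158 and 145 CPM in the KO-labelled library, against 111 and 109 CPM in the WT library. These 2 clusters held 29.2% and 36.7% of the Fcgr3 UMIs of the KO-labelled library, and 25.3% and 42.1% of those of the WT library. Both genes were higher still in cluster 14, led by Prss34 and Mcpt8, which is outside the 14 because it held 28 KO-labelled and 103 WT cells. There Fcgr3 had 299 CPM in the KO-labelled and 316 CPM in the WT library, with 1.86% of the Fcgr3 UMIs of the KO-labelled and 15.2% of those of the WT library, and Fcer1g had 1527 CPM in the KO-labelled and 1393 CPM in the WT library. The KO-labelled cells of cluster 14 had 0 Fcer1a and 0 Ms4a2 UMIs, against 1007 and 492 in its WT cells. All 7 Prss34 UMIs of the KO-labelled library lay in 1 cell of cluster 9. The 50 leading genes of cluster 14 also held 6 neutrophil markers, so its cells may differ in kind between the libraries. Fcgr3 was higher in the KO-labelled library in 13 of 14 clusters, with the interval above 1 in 9. Among the 14, Fcer1g was highest in cluster 13, at 1193 CPM in the KO-labelled and 1021 CPM in the WT library, and it was higher in the KO-labelled library in 7 and lower in 7, with 5 intervals above 1 and 5 below.

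**Figure D3:**
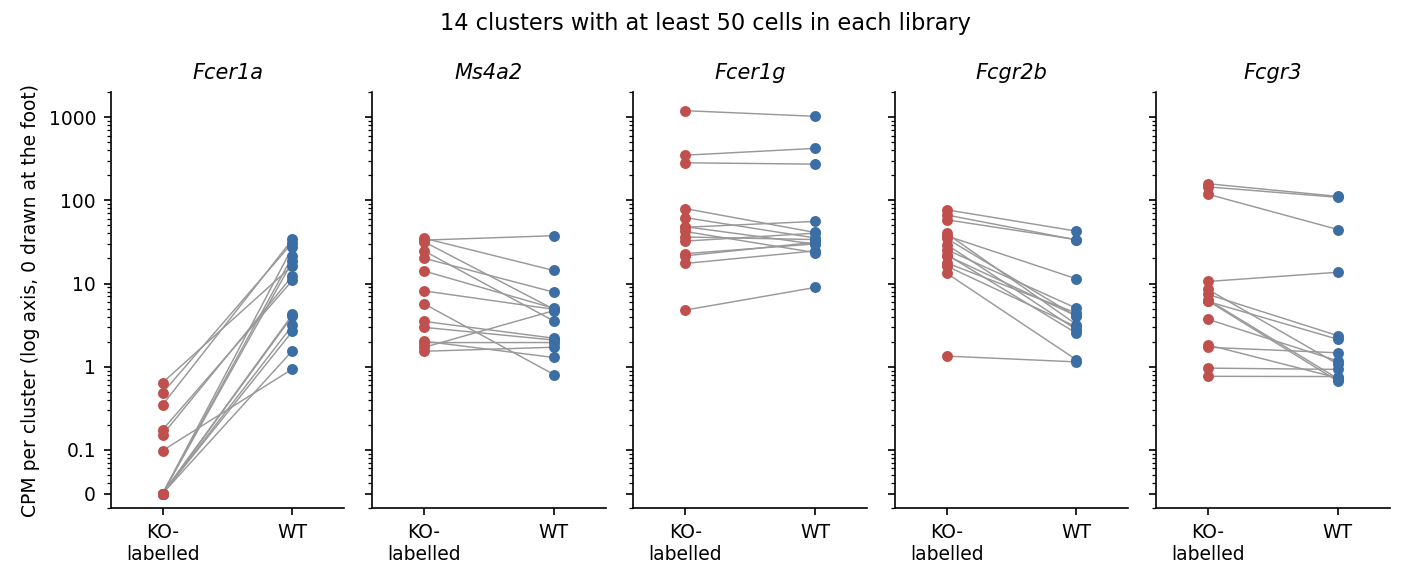
Level of each gene in CPM (log axis, 0 drawn at the foot) in each of 14 clusters with at least 50 cells per library, with the KO-labelled library left and the WT library right in each panel. Each line joins the 2 libraries in 1 cluster. The Fcer1a lines all run from 0 to 0.646 CPM in the KO-labelled library against 0.942 to 34.0 CPM in the WT library, the Fcgr2b lines are all higher in the KO-labelled library, and the Fcer1g lines run both ways.

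Across 31 profiles, 1 for each cluster and library with at least 50 cells, the genes most like each of the 5 were ranked by Pearson correlation of log2(CPM + 1) among genes at 20 CPM or more, as a description, since the profiles share libraries and depth. Fcer1a was most like Prss34 (r = 0.868), then Pi4ka (0.770) and Mcpt8 (0.765). In the KO-labelled library Fcer1a, Prss34 and Mcpt8 had only 0.176, 0.0587 and 0.755 CPM, and the profiles include the WT cells of cluster 14. These values of r thus in part restate the difference between libraries by which Fcer1a was chosen. Ms4a2 was most like Cpa3 (r = 0.835), then Stx3 (0.798), Gm17590 (0.796), Fgf3 (0.770) and Nucb1 (0.767). Fcer1g was most like Tyrobp, another ITAM adaptor (r = 0.956), and Fcgr2b was most like Fam105a (0.876), Cd48 (0.868) and Csf2rb (0.858). Fam105a, Cd48 and Csf2rb were also higher in the KO-labelled library, Cd48 at 173.8 CPM against 61.3 CPM in the WT library. The values of r for Ms4a2 and Fcgr2b can therefore also in part restate differences between libraries. Fcgr3 was most like Ccl9 (r = 0.956), the granule protease gene Ctsg (0.935) and Ltb4r1 (0.931). Among the 5 genes, r was 0.865 between Fcer1g and Fcgr3 and 0.484 between Fcer1a and Ms4a2.

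The rest of the Fc receptor family was scarce. Of its 13 other listed members only 2 reached 5 CPM, namely Fcgrt, the neonatal Fc receptor, with 14.5 CPM in the KO-labelled and 8.87 CPM in the WT library (ratio 1.63, 1.51 to 1.76), and Trim21, a cytosolic antibody receptor, with 6.26 CPM in the KO-labelled and 8.397 CPM in the WT library (ratio 0.745). Fcgr1, the high-affinity IgG receptor, had 1.15 CPM in the KO-labelled and 0.559 CPM in the WT library, and Fcgr4 had 0.595 CPM in the KO-labelled and 0.373 CPM in the WT library. Of 7 listed adaptor genes of other immune receptors 3 reached 5 CPM, and all 3 were higher in the KO-labelled library, beside 33.9% of the 9572 genes at 5 CPM or more that were higher and 66.1% that were lower. They were the ITAM adaptor Tyrobp (132.9 CPM in the KO-labelled and 92.5 CPM in the WT library, ratio 1.44), Hcst, an adaptor without an ITAM that recruits PI3-kinase (ratio 1.43), and Cd79b, an ITAM chain of the B cell receptor (ratio 1.21). None of them reached 1.5-fold over all kept cells, while without the protease-rich cells the ratio of Tyrobp was 1.57.

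Of 23 listed genes that signal below the IgE receptor 20 were measured. Measured here and below means 5 CPM or more in at least 1 library. Genes under that floor are left out of the counts even where they had UMIs. Of the 20 genes, 13 were higher and 7 lower in the KO-labelled library, and their log2 ratios had a median of 0.09. Over the 9572 genes 3241 were higher and 6331 lower, with a median of -0.08. Lat2, an adaptor of mast cells and B cells, had 71.6 CPM in the KO-labelled and 33.8 CPM in the WT library (ratio 2.12, 2.04 to 2.20). The tyrosine kinase gene Btk had a ratio of 1.48, the kinase gene Fyn 0.710, and Sos1, an exchange factor for Ras, 0.520. Syk, the kinase that binds the ITAMs of the beta and gamma chains, had 59.3 CPM in the KO-labelled and 62.1 CPM in the WT library, a ratio of 0.954. Of 12 genes of the inhibitory pathway 8 were measured, of which 4 were higher and 4 lower, none of them by 1.5-fold, and the median was -0.01 on the log2 scale. The phosphatase genes recruited by ITIMs were among them, with ratios of 1.06 for Inpp5d, 1.16 for Ptpn6 and 0.746 for Ptpn11.

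Of the measured genes for mast cell and basophil products and receptors, 8 of 10 had a higher level in the KO-labelled library when the protease-rich cells were left out. Over all kept cells 12 of 22 listed genes were measured, of which 6 were higher by 1.5-fold or more and 3, namely Prss34, Mcpt8 and Alox5, lower by as much, with a median log2 ratio of 0.43. Prss34 and Mcpt8 define the protease-rich cells. Without those cells 10 genes were measured, of which 6 were higher by 1.5-fold or more and 1, Mcpt8, lower by as much, with a median of 0.81. Prss34 (0 CPM in the KO-labelled and 2.60 CPM in the WT library) and Alox5 (2.29 and 4.54 CPM) were then under 5 CPM. The counts and the median therefore changed in part because these lower genes left the list. Over the 9572 genes measured without those cells 3.0% were higher and 3.91% lower by 1.5-fold or more, and 34.0% were higher and 66.0% lower by any amount. Cpa3 had 163.8 CPM in the KO-labelled and 46.4 CPM in the WT library (ratio 3.53), and Csf2rb, the shared beta chain of the IL-3, IL-5 and GM-CSF receptors, had 22.6 CPM in the KO-labelled and 9.47 CPM in the WT library (ratio 2.39). The ratio was 1.92 for Il1rl1, the IL-33 receptor, 1.92 for Itga2 and 1.86 for Hdc, the enzyme that makes histamine. Mcpt8 had 0.755 CPM in the KO-labelled and 108 CPM in the WT library, and Prss34 had 0.0587 CPM in the KO-labelled and 109 CPM in the WT library. Without the protease-rich cells the ratio was 5.13 for Cpa3, 2.62 for Csf2rb and 2.56 for Hdc. Alox5, which starts leukotriene synthesis, had 2.30 CPM in the KO-labelled and 5.59 CPM in the WT library over all kept cells (ratio 0.411).

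Of 19 listed transcription factor genes of these lineages 17 were measured, of which 12 were higher and 5 lower, with log2 ratios around a median of 0.06. Apart from Runx1 the largest ratio was that of Runx2, at 1.49. Gata2 had 162.5 CPM in the KO-labelled and 164.9 CPM in the WT library, a ratio of 0.985 (0.966 to 1.005), and Gata1 had a ratio of 1.19. Spi1, which encodes PU.1, had a ratio of 1.30.

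**Figure D4:**
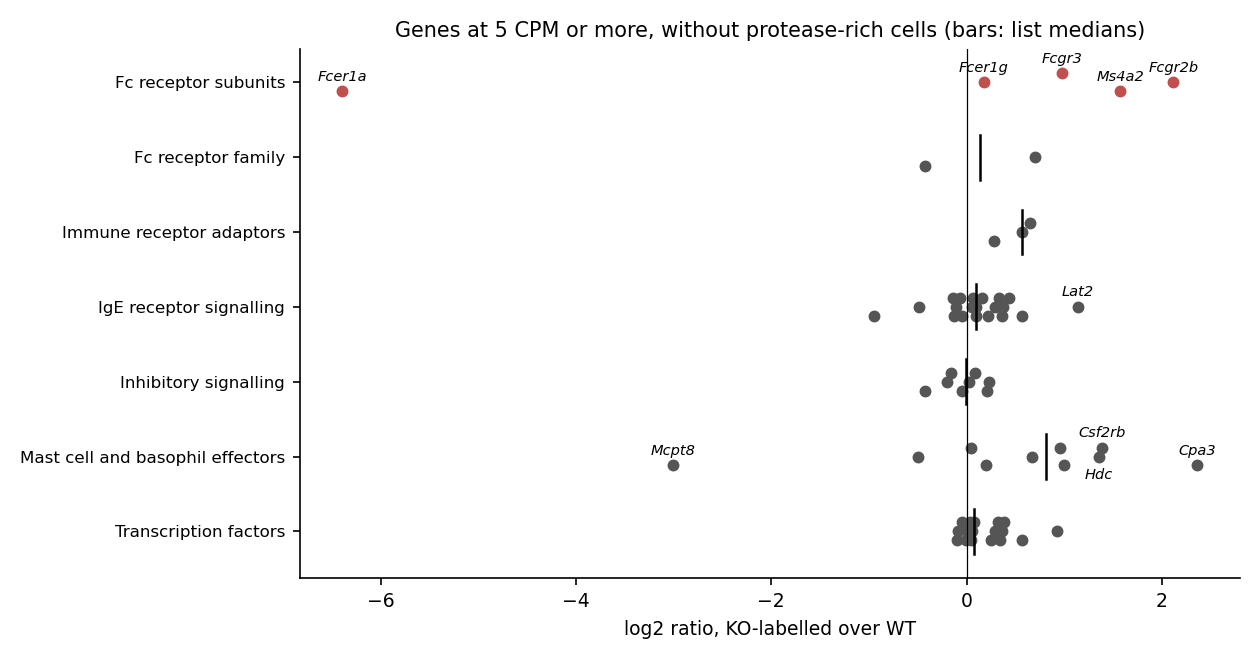
Log2 ratio of the KO-labelled over the WT library for the 5 Fc receptor subunit genes (top) and for genes of 6 lists at 5 CPM or more, without protease-rich cells. Each point is 1 gene and each short bar is the median of a list. Each label names a gene past 2-fold or one of the 5. Fcer1a lies at -6.39, while Ms4a2 and Fcgr2b lie at 1.57 and 2.12, and the signalling, inhibitory and transcription factor lists lie around 0.

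**Figure D5:**
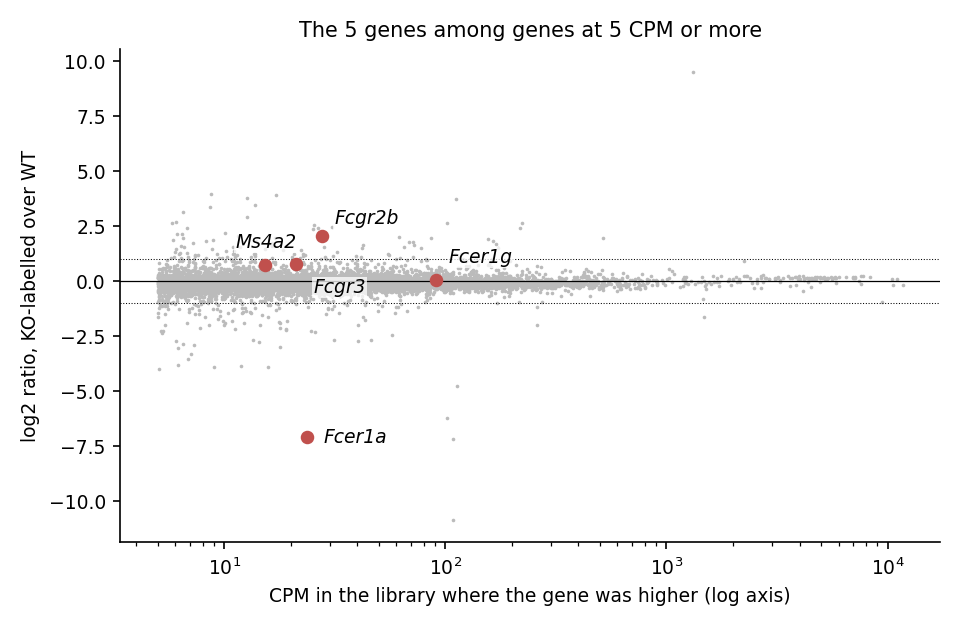
Log2 ratio of the KO-labelled over the WT library against CPM in the library where the gene was higher (log axis) for the 9572 genes that reached 5 CPM in at least 1 library, with the 5 Fc receptor subunit genes in red and dotted lines at 2-fold. Fcer1a lies at -7.07 among the lowest genes, Fcgr2b at 2.05, Fcgr3 and Ms4a2 at 0.78 and 0.74, and Fcer1g at 0.06.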

How the data were processed

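UMI counts per gene and barcode were used as the authors deposited them. The submitters' processing notes name Cell Ranger 2.1.1 and the build mm10. The matrix files give software version 3.1.0, per the file headers. The libraries used 3′ v2 chemistry, per the labels' protocols. Barcodes under 500 genes or over 10% mitochondrial UMIs were removed (629 KO-labelled and 497 WT). Doublets were not removed. The 5 genes and all gene lists were chosen with earlier results of these data known.

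Levels are UMIs of a gene per 1000000 UMIs of the same cells (CPM). These cells were the kept cells of a library, or the cell set or cluster named, within that library. Intervals are exact and at 95%: Poisson for sums, conditional binomial for ratios, Clopper-Pearson for shares. UMI sums of 0 were set to 3 counts for ratios, and 0 of n cells allows up to 3 cells. No test was made with 1 library per genotype. For shares, cells were thinned to 3000 UMIs. Male cells had a UMI of 4 Y-linked genes and no Xist UMI, and female cells had 2 or more Xist UMIs and no Y-linked UMI.

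Clusters came from 2000 variable genes, reduced to 30 components with 20 neighbours per cell, at resolution 0.8 of the Leiden method (leidenalg 0.10.2, scanpy 1.11.5). A cluster was named when at least 3 markers of 1 list were among its 50 leading genes, more than of any other list. The first marker among these genes also had to come from that list. At least 1 of the 10 leading genes had to be its marker, with no other list holding more there. The rule was settled after the clusters were seen. Genes named from lists were those past 2-fold at 20 CPM and up to 4 others with the largest ratios at 5 CPM. Syk, Inpp5d, Ptpn6, Gata1, Gata2, Spi1, Fcgr1 and Fcgr4 were named for their roles after their values were seen. Cd200r3 and Il4 were named as genes of the basophil list, also after their values were seen. Scaling alternatives used edgeR 4.0.16 (TMM) and DESeq2 1.42.0 (size factors). The ratio and count steps were tested on simulated sums. Python 3.11.15, numpy 2.4.6, scipy 1.17.1, pandas 2.3.3 and R 4.3.3 were used.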

Additional observations from a re-analysis of the deposited data

Results flagged for a closer look

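Ms4a2 differed in opposite directions between clusters, with intervals of the ratio wholly above 1 in 7 clusters and wholly below 1 in 1. The KO-labelled over WT ratio was 7.08 (3.07 to 20.1) in the stem-like cluster 0, from 58 KO-labelled and 6 WT UMIs, and 0.362 (0.133 to 0.910) in the granulocyte-monocyte progenitor-like cluster 10, from 8 KO-labelled and 15 WT UMIs. Fcer1g likewise had a ratio of 1.94 (1.70 to 2.22) in cluster 0, from 806 KO-labelled and 305 WT UMIs, and 0.535 (0.372 to 0.762) in the erythroid-like cluster 9, from 50 KO-labelled and 94 WT UMIs. The difference between clusters was not tested for either gene.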

How the results depend on the processing

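No paired analysis was possible because there was 1 library per genotype. Fcer1a stayed lower in the KO-labelled library, and Ms4a2, Fcgr2b and Fcgr3 higher, under all 9 alternatives tried over all kept cells and all 12 without the protease-rich cells. The values below are KO-labelled over WT ratios that lay outside the interval of the reported ratio, and the cause was not tested.

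Over all kept cells, the stricter cell filter gave 1.43 for Ms4a2, 0.967 for Fcer1g (the opposite direction), 3.73 for Fcgr2b and 1.54 for Fcgr3. Male cells alone gave 0.00423 for Fcer1a, 2.20 for Ms4a2 and 1.95 for Fcgr3. Equal weights for the clusters gave 2.01 for Ms4a2, 1.08 for Fcer1g and 3.03 for Fcgr2b. TMM scaling gave 1.12 for Fcer1g and 1.83 for Fcgr3, and for Fcer1g size factors of DESeq2 gave 1.11 and a total without ribosomal and mitochondrial genes 1.08. Thinning to 3000 UMIs gave 1.83 for Fcgr3.

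Without the protease-rich cells, male cells gave 0.00646 for Fcer1a, 3.72 for Ms4a2 and 2.18 for Fcgr3. Thinning gave 3.56 for Ms4a2, 1.19 for Fcer1g and 2.43 for Fcgr3. Equal cluster weights gave 2.05 for Ms4a2, 1.08 for Fcer1g, 3.02 for Fcgr2b and 1.64 for Fcgr3. The stricter filter gave 1.07 for Fcer1g and 3.99 for Fcgr2b. Leaving out every cell with at least 1 protease UMI gave 3.28 for Ms4a2, 4.73 for Fcgr2b and 2.31 for Fcgr3. For Fcer1g, TMM, DESeq2 and the smaller total gave 1.21, 1.201 and 1.17.

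Genes 2-fold higher and lower numbered 116 and 123 with a floor of 5 CPM, 870 and 1747 with no floor, and, without the protease-rich cells, 82 and 51 with the smaller total, which raises CPM so that more genes pass the floor. Without protease-rich cells the WT library had 288 Fcer1a UMIs per 100 of Ms4a2, 18.3 of Fcer1g, 232.0 of Fcgr2b and 137 of Fcgr3. In male cells the KO-labelled library had 0.493, 0.109, 0.337 and 0.385 per 100 UMIs of these genes, from 1 Fcer1a UMI, and the WT library had 177 per 100 of Fcgr3. With both other clusterings, the share of clusters in which Fcer1a was lower, and in which each other gene was higher, stayed within 1.5 times, while Fcgr3 was lower in 3 of 22 clusters (13.6%) of the finer clustering, against 1 of 14 (7.14%). Of 158 further values (shares of cells and list medians), 115 stayed within their interval or within 0.1 on the log2 scale and 43 moved. Reversal was counted only for list medians at least 0.1 from 0 on the log2 scale, and 0 of these reversed. Medians nearer to 0, as in the signalling, inhibitory and transcription factor lists, could change sign without being counted. Depth limits Fcer1a in the KO-labelled library, where clusters held 0 to 7 UMIs.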
